A study of Mus musculus with 21 samples.

Results

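The 7 genes described here are the immunoglobulin G receptor genes Fcgr1, Fcgr2b, Fcgr3 and Fcgr4, the shared signalling chain Fcer1g, the neonatal Fc receptor gene Fcgrt and the Fc receptor-like gene Fcrls. They were taken by symbol from a table of 34236 gene names, and all 7 were found, each on 1 line, with counts in all 21 libraries. The family was chosen by name, on CPM values of all 21 libraries that were already known, so its levels and fold changes are given as a description without a test. There was no cut-off on level or change. Tests were kept for other genes of the same pathway, on lists that were also drawn up with earlier results of these data known.

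Fc gamma receptors bind the constant part of IgG. Fcgr1 encodes CD64, the high-affinity receptor, while Fcgr3 and Fcgr4 encode activating receptors of lower affinity, and all 3 reach the cell surface and signal through the ITAM-bearing gamma chain encoded by Fcer1g. Fcgr2b encodes the inhibitory receptor, whose ITIM recruits phosphatases such as SHIP1 (Inpp5d) to the same signalling complex. Fcgrt encodes FcRn, which pairs with beta-2-microglobulin (B2m) and returns IgG and albumin from endosomes, and Fcrls encodes a scavenger-type Fc receptor-like protein known as a marker of microglia.

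RNA was sequenced from macrophages sorted from kidneys of male C57BL/6J mice aged 24 weeks, with a sort time of 5 h in the labels. Kidneys came from Sham mice or from mice with renal artery stenosis (RAS), made with a cuff on the right renal artery. F4/80+CD64+ cells were divided into monocyte-derived CD11chiMϕ (3 Sham and 4 RAS libraries), monocyte-derived CD11cloMϕ (3 Sham and 4 RAS) and kidney-resident macrophages, KRM (4 Sham and 3 RAS). All cells were thus gated on CD64, the product of Fcgr1, after their Fc receptors had been blocked and T, B, NK and red cells and granulocytes had been gated out. No label says that the libraries of a group came from separate animals, so the spread between them may be partly technical. In sorted bulk RNA, fewer cells of a type and less RNA per cell cannot be told apart.

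Library totals were 6891137 to 18592376 counts. Of 13 macrophage markers, all 13 were counted in every group, and their summed level was 5744 to 27692 CPM (counts per library scaled to a common total with TMM factors over the 21 libraries). Some libraries stood apart. The 6 proximal tubule markers summed to 12938 CPM in CD11chi Sham 3 and 4339.7 CPM in CD11clo Sham 3, against 24.1 to 1729 CPM elsewhere. CD11chi RAS 3 and 4 were closer to each other (mean chi-square per gene 5.49) than to the others of their group (119 to 160 over the remaining pairs), and the same held for KRM RAS 2 and 3 (11.8 against 129 and 164). KRM Sham 2 and 4 were also close (8.09). The counts of KRM RAS 1 did not follow its column in the deposited log2 table (r = 0.09 across 12333 genes, against 0.92 to 0.97 for the other 20 libraries). They lay closest to the column of KRM Sham 3, while each of the other 20 libraries lay closest to its own. The KRM fold changes between RAS and Sham are therefore given with and without KRM RAS 1. Neutrophil markers summed to 808 to 2506 CPM in CD11cloMϕ against 0.773 to 248 CPM in the other libraries, where Ly6g was at 0.

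Fcgr2b, Fcgr4, Fcgr3 and Fcer1g lie together within 276 kb of chromosome 1 (GRCm38, the mm10 build; gene models of GENCODE vM21). Fcgr2b spans chr1:170958617-170976547 on the minus strand, Fcgr4 chr1:171018920-171029761 on the plus strand, Fcgr3 chr1:171051174-171064935 and Fcer1g chr1:171229572-171234365, both on the minus strand. Fcrls (chr3:87250758-87263738) and Fcgr1 (chr3:96282909-96293969) lie on chromosome 3 and Fcgrt (chr7:45092990-45103851) on chromosome 7, all on the minus strand.

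The coding sequences of Fcgr2b and Fcgr3 share a run of 129 identical bases, where no other pair of the 7 shares a run over 15. A stretch of 240 coding bases around that run is shown because it bears on how short reads are shared out between the inhibitory and the activating gene. It runs across exons 3 and 4 in both genes (introns left out), from chr1:170966619-170968137 in Fcgr2b (transcript Fcgr2b-201) and chr1:171054112-171057848 in Fcgr3 (Fcgr3-201), and capitals mark the 6 bases that differ.
Fcgr2b: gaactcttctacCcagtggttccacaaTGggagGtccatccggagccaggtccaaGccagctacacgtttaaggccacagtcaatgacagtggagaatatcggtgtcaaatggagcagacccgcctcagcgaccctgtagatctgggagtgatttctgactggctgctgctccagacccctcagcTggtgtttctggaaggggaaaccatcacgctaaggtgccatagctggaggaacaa
Fcgr3: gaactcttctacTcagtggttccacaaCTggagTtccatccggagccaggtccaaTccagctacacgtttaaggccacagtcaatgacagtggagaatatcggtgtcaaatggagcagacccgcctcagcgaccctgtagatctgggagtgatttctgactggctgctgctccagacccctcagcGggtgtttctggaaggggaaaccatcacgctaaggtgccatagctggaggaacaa
The 2 stretches were 97.5% identical. Of windows of 50 bases, 4.75% of those in the Fcgr2b transcript and 12.8% of those in the Fcgr3 transcript also occur in the other, and no other pair of the 7 genes shares such a window. Unlike the other 5 members, Fcgr2b and Fcgr3 had fractional counts in 20 of 21 libraries, and their sum was a whole number (within 0.01) in all 21. Their split within a library is therefore the authors' estimate, and the sum is given beside the separate values.

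The 200 bases just before the RefSeq start sites (GRCm38.p6) of Fcgr4, Fcgr1 and Fcrls are shown because these 3 genes had the widest ranges across the libraries, 18.1-fold, 20.0-fold and 94.3-fold from the lowest to the highest. Capitals mark GAGGAAG on either strand (read as its reverse complement on the strand shown in Fcgr4 and Fcgr1), a purine-rich core of the kind bound by PU.1, the macrophage factor encoded by Spi1.
Fcgr4 (chr1:171018726-171018925, plus strand): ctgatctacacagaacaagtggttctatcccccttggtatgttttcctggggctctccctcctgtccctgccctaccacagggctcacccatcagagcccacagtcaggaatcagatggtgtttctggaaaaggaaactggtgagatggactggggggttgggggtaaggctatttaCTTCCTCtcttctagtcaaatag
Fcgr1 (chr3:96293970-96294169, minus strand): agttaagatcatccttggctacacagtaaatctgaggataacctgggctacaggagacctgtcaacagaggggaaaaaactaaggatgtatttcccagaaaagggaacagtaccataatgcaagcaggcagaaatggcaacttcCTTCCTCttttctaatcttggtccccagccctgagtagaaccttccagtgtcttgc
Fcrls (chr3:87263525-87263724, minus strand): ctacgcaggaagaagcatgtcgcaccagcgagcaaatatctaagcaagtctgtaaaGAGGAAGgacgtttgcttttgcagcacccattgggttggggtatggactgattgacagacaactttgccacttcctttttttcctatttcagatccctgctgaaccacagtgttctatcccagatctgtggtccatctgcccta
The letters were chosen after the sequences had been read. In windows from 250 bases before to 50 after the start, GAGGAAG occurred in 4 of the 7 genes (also in Fcgr3), against 15.4% of 27025 genes with such a window. Another motif searched in the same windows, TTCNNNGAA, occurred in 1 of the 7 (Fcgr1), against 9.55%. These are matches of letters, not measured binding sites.

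Per kb of exon, Fcer1g was the highest of the 7 genes in each of the 6 groups, at 999.8 ± 276 CPM per kb in KRM RAS to 1676 ± 358 in KRM Sham (mean ± SD). Fcgr3 followed at 271 to 645 CPM per kb. In KRM Sham the order then ran Fcgr4 (304 ± 39.4), Fcgrt (199 ± 32.7), Fcgr2b (160.0 ± 16.1), Fcgr1 (69.1 ± 8.0) and Fcrls (2.97 ± 0.235). In CD11chi RAS the order differed, with Fcrls (201 ± 76.1) above Fcgr2b (135 ± 53.4), Fcgrt (134 ± 22.1) and Fcgr4 (51.6 ± 47.8), and Fcgr1 was the lowest. The length used is that of all annotated exons of a gene joined, 5790 bases for Fcgr2b, whose transcript Fcgr2b-201 has 3544. The place of Fcgr2b in these orders depends on which length is used.

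**Figure D1:**
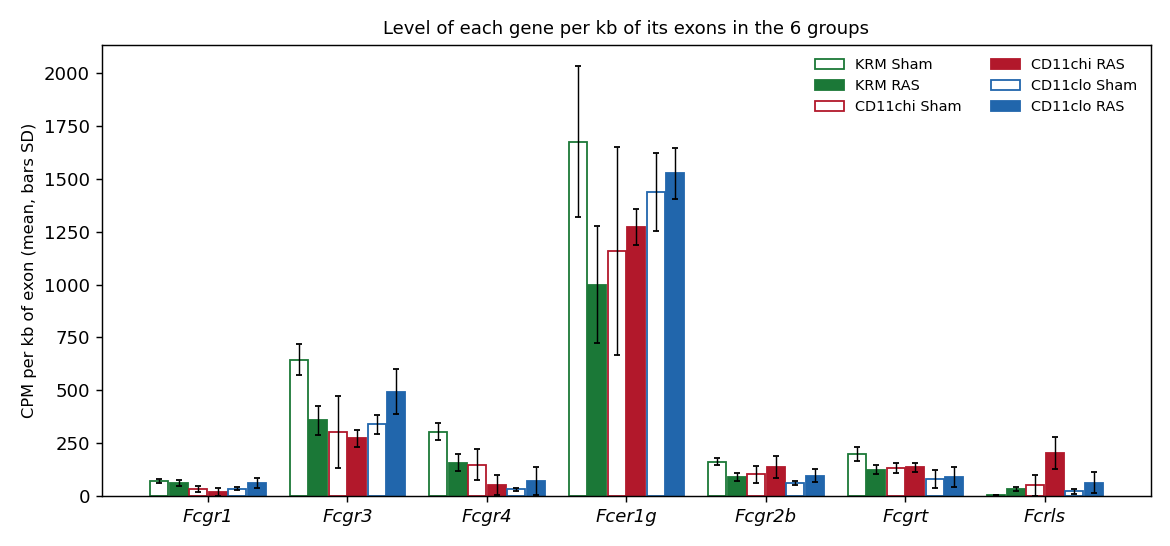
Mean level of each gene in CPM per kb of its exons (vertical axis) in the 6 groups; open bars are Sham, filled bars RAS, and error bars are SD over 3 or 4 libraries. Fcer1g stands above the other genes in each group, and the Fcrls bar of KRM Sham, 2.97 CPM per kb, is barely visible.

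Fcgr4, the activating receptor that the study also stained for as FCRIV, separated the populations of Sham kidneys. It was at 455, 358, 349 and 364 CPM in the 4 KRM Sham libraries, at 197, 267 and 85.8 CPM in CD11chi Sham and at 44.6, 37.1 and 29.7 CPM in CD11clo Sham. The 3 populations did not overlap. KRM stood 10.4-fold above CD11cloMϕ (log2 fold change 3.37, SE 0.21) and 2.07-fold above CD11chiMϕ (1.05, SE 0.35). CD11chiMϕ stood 5.15-fold above CD11cloMϕ (2.36, SE 0.41). Leaving out CD11chi Sham 3 gave 0.73 for KRM against CD11chiMϕ and 2.66 for CD11chiMϕ against CD11cloMϕ.

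In RAS kidneys Fcgr4 was at 251, 151 and 182 CPM in KRM, each below the lowest KRM Sham library. The log2 fold change was -0.94 (SE 0.21), and -1.22 without KRM RAS 1. CD11chi RAS libraries held 153, 53.0, 25.2 and 28.2 CPM and overlapped with Sham through CD11chi RAS 1 alone (-1.53, SE 0.67, and -2.38 without that library). The 2 lowest values were those of the pair of libraries that lay close together. In CD11clo RAS the values were 28.0, 36.9, 205 and 75.6 CPM, also overlapping with Sham (1.23, SE 0.66, and 0.35 without CD11clo RAS 3).

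Fcgr1, the gene of the sort marker CD64, was at 206, 173, 156 and 180.3 CPM in KRM Sham and at 203, 131 and 139.7 CPM in KRM RAS. These groups overlapped (-0.15, SE 0.19), but without KRM RAS 1 the other 2 libraries lay below all 4 Sham libraries and the log2 fold change was -0.43. CD11chi Sham held 90.7, 111 and 42.0 CPM, and CD11chi RAS 118, 43.1, 19.7 and 12.1 CPM. CD11clo Sham held 90.2, 96.3 and 65.2 CPM, below the 126, 119.7, 242 and 119.7 CPM of CD11clo RAS (0.87, SE 0.30, and 0.55 without CD11clo RAS 3). KRM Sham did not overlap with either monocyte-derived Sham population and was 2.19-fold above CD11chiMϕ and 2.15-fold above CD11cloMϕ.

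The ranking of the 6 groups by mean Fcgr1 ran KRM Sham, KRM RAS, CD11clo RAS, CD11clo Sham, CD11chi Sham and CD11chi RAS, and only the step from CD11clo RAS to CD11clo Sham had no overlap between neighbours. For Fcgr4 it ran KRM Sham, KRM RAS, CD11chi Sham, CD11clo RAS, CD11chi RAS and CD11clo Sham, and only the step from KRM Sham to KRM RAS had none.

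Fcgr3, the other activating receptor gene, was at 1279, 1090.1, 1127 and 979 CPM in KRM Sham and at 752, 526 and 582 CPM in KRM RAS, without overlap (-0.83, SE 0.18, and -1.05 without KRM RAS 1). In CD11cloMϕ the direction was opposite: 674, 549 and 533 CPM in Sham lay below 729.9, 724, 1119 and 852 CPM in RAS (0.56, SE 0.21, and 0.41 without CD11clo RAS 3). CD11chiMϕ overlapped, with 456, 846 and 271 CPM in Sham and 570.0, 477, 433 and 402 CPM in RAS.

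Fcgr2b, the inhibitory receptor gene, followed the same pattern in KRM, at 1049, 939, 830.3 and 886 CPM in Sham and 629, 417 and 509 CPM in RAS (-0.81, SE 0.18, and -1.03 without KRM RAS 1). In CD11cloMϕ it was at 361, 298 and 393 CPM in Sham and 399.7, 470.1, 822 and 509 CPM in RAS (0.65, SE 0.27, and 0.40 without CD11clo RAS 3). In CD11chi RAS the libraries held 587 and 449 CPM in replicates 1 and 2 and 1039.7 and 1049 CPM in replicates 3 and 4, against 694, 748 and 320.1 CPM in Sham. The sum of Fcgr2b and Fcgr3, which does not rest on the authors' split, was 1866 to 2328 CPM in KRM Sham and 943 to 1380.3 CPM in KRM RAS, and 847 to 1035 CPM in CD11clo Sham and 1129.6 to 1941 CPM in CD11clo RAS, neither pair overlapping.

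Fcer1g, the gamma chain needed by the activating receptors, varied less than the receptors between groups, with group means within 0.76 of each other on the log2 scale. From the lowest to the highest library its range was 3.69-fold, against 3.52-fold for Fcgr2b and 4.59-fold or more for the other members. It was at 1922, 1402, 1232 and 1305 CPM in KRM Sham and 1149, 701 and 772 CPM in KRM RAS, without overlap (-0.72, SE 0.24, and -1.02 without KRM RAS 1). CD11chiMϕ and CD11cloMϕ libraries held 1039 to 1449 CPM, except 521 CPM in CD11chi Sham 3, and RAS and Sham overlapped in both.

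Fcgrt was at 518, 398, 389.7 and 364 CPM in KRM Sham and 310.2, 226 and 243 CPM in KRM RAS (-0.66, SE 0.18, and -0.86 without KRM RAS 1). CD11chiMϕ held 222 to 324 CPM over Sham and RAS libraries. CD11cloMϕ held 113 to 149.7 CPM in 5 libraries and 271 and 330.2 CPM in CD11clo Sham 3 and CD11clo RAS 3. KRM Sham thus lay above both monocyte-derived Sham populations, by 1.48-fold and 2.59-fold.

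In KRM, Fcrls ran opposite to the receptors. It was low in KRM of Sham kidneys, at 6.86, 6.37, 6.83 and 7.69 CPM (58 to 136 counts), and was at 48.0, 78.4 and 90.3 CPM in KRM of RAS kidneys (485 to 935 counts). The groups did not overlap and the difference was 10.6-fold (log2 3.40, SE 0.22, and 3.57 without KRM RAS 1). CD11chi Sham held 252, 56.7 and 39.7 CPM and CD11chi RAS 219.7, 463, 601 and 592 CPM, overlapping through CD11chi Sham 1 alone (1.99, SE 0.70, and 3.24 without that library). CD11clo Sham held 20.6, 47.2 and 73.8 CPM and CD11clo RAS 49.7, 57.2, 300.1 and 174 CPM (1.63, SE 0.72, and 1.00 without CD11clo RAS 3). Against KRM Sham, CD11chi Sham was 16.7-fold higher and CD11clo Sham 6.60-fold higher, without overlap. For KRM against CD11chiMϕ the log2 fold change was -4.06 (SE 0.63), and -2.80 without CD11chi Sham 1. The 6 dendritic cell markers, whose cells share CD11c with CD11chiMϕ, summed to 156 to 203 CPM in KRM Sham and 189.8 to 236 CPM in KRM RAS, and to 1083 to 4911 CPM in CD11chi RAS. Their part in the Fcrls values was not tested.

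**Figure D2:**
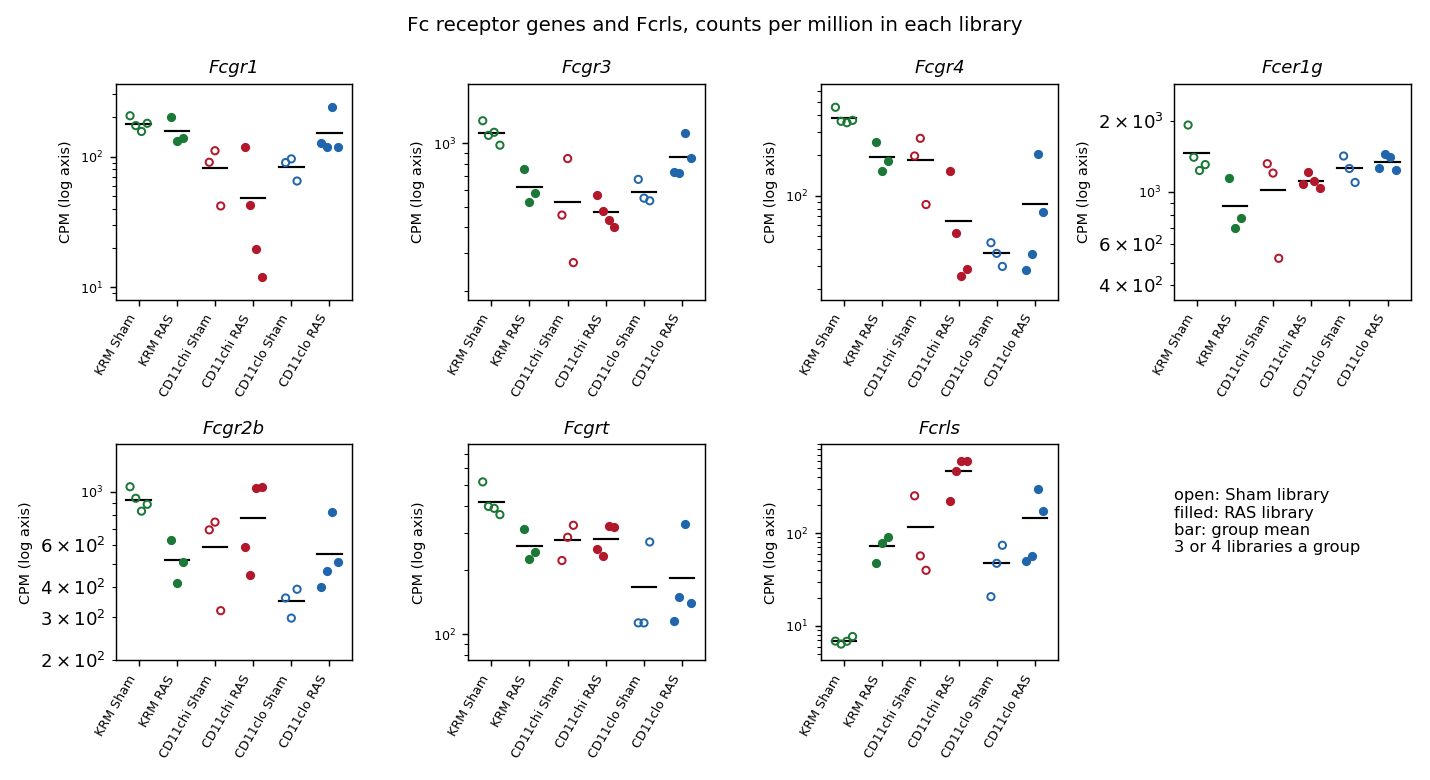
Level of each of the 7 genes in CPM (log axis) in the 21 libraries by group; open points are Sham, filled points RAS, and bars are group means. Fcrls is at 6.37 to 7.69 CPM in KRM Sham and at 48.0 to 90.3 CPM in KRM RAS, while Fcgr4, Fcgr3, Fcgr2b, Fcer1g and Fcgrt are lower in all 3 KRM RAS libraries than in the 4 KRM Sham libraries.

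Between Sham populations, 5 of the 7 genes were higher in KRM than in CD11chiMϕ without overlap and 1 was lower, and the same counts held against CD11cloMϕ, with Fcer1g overlapping in both. Over all genes tested, 24.6% did not overlap against CD11chiMϕ (12.9% higher and 11.7% lower) and 49.3% against CD11cloMϕ (23.7% higher and 25.6% lower). In CD11chiMϕ against CD11cloMϕ, 1 member (Fcgr4) was higher without overlap, where 27.4% of all genes did not overlap (12.3% higher and 15.1% lower). For RAS against Sham, 5 members were lower and 1 higher in KRM (all genes: 26.5%, with 14.3% lower and 12.2% higher), 3 were higher in CD11cloMϕ (all genes: 8.58%, with 4.38% higher and 4.19% lower), and none of the 7 separated in CD11chiMϕ (all genes: 7.03%, with 4.22% higher and 2.81% lower). Without CD11chi Sham 3, the log2 fold changes of KRM against CD11chiMϕ were 0.84 for Fcgr1, 0.37 for Fcgr2b and 0.79 for Fcgr3, against 1.13, 0.65 and 1.09 with it. With the close libraries KRM RAS 2 and 3 summed into 1, RAS against Sham in KRM gave -0.86 for Fcgr4 and 3.26 for Fcrls, and with CD11chi RAS 3 and 4 summed, RAS against Sham in CD11chiMϕ gave -1.26 and 1.88. Nothing is read from the counts of members, since the members were chosen with their levels known.

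**Figure D3:**
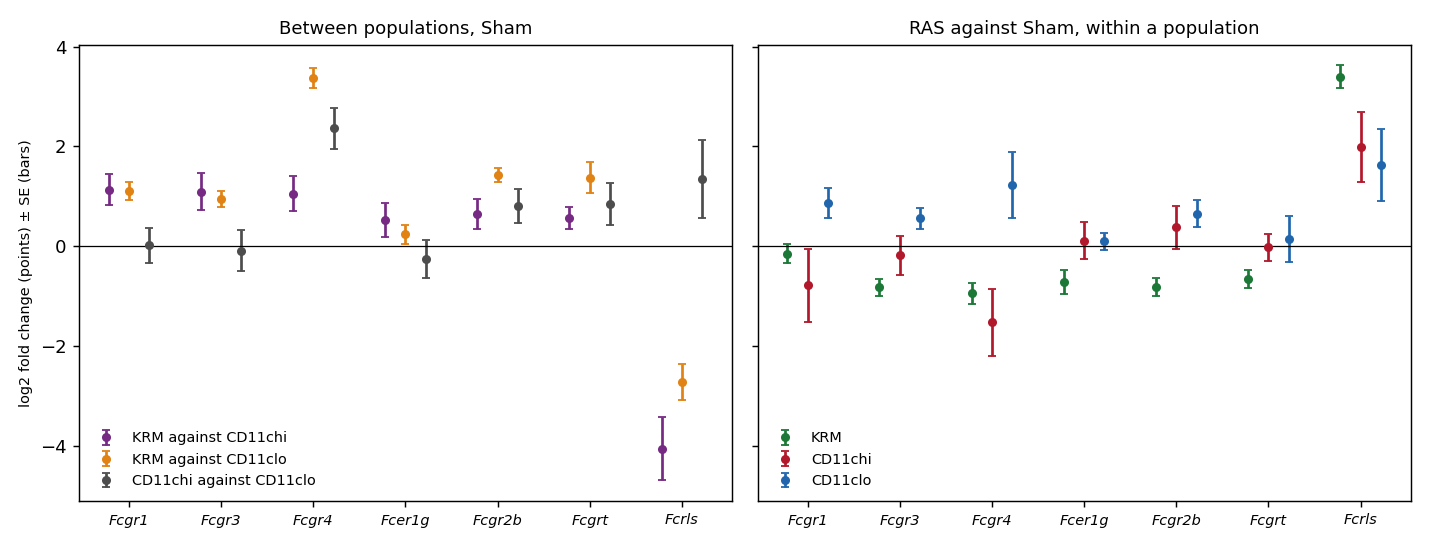
Log2 fold change (points) and standard error (bars) of each gene between Sham populations (left) and for RAS against Sham in each population (right). Fcgr4 lies at 3.37 for KRM against CD11cloMϕ and Fcrls at -4.06 for KRM against CD11chiMϕ, while on the right Fcrls lies above 0 in the 3 populations and Fcgr3 and Fcgr2b lie below 0 in KRM and above 0 in CD11cloMϕ.

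The macrophage markers moved with the receptors in KRM. Their summed level was 20857 to 27692 CPM in KRM Sham and 18134, 11082 and 12965 CPM in KRM RAS 1 to 3. Endothelial markers summed to 10.1 to 22 CPM in KRM Sham and to 17.1, 219 and 187 CPM in the same RAS libraries. B and plasma cell markers summed to 3020.1, 539 and 536 CPM in these libraries, against 1249 to 1608 CPM in KRM Sham. NK cell markers summed to 294, 32 and 29.9 CPM, against 3.04 to 3.67 CPM in KRM Sham, and mast cell and basophil markers to 78.6, 7.09 and 8.02 CPM, against 1.34 to 6.88 CPM. In CD11chiMϕ the macrophage markers were at 11015, 14526 and 5744 CPM in Sham and 11813, 6998, 6544 and 6353 CPM in RAS, and the dendritic cell markers at 4536 and 4911 CPM in RAS 3 and 4 against 394 to 1842 CPM in the other 5 libraries. In CD11cloMϕ, RAS 3, which held the highest Fcgr1, Fcgr4, Fcgrt and Fcrls values of that population, also held the highest macrophage marker sum, 19827 CPM, against 8179.6 to 11818 CPM in the other 6. Classical monocyte markers summed to 2788 CPM there and to 4192 to 13169.9 CPM in the other 6. Mast cell and basophil markers summed to 39.4, 43.7 and 27.0 CPM in CD11clo Sham and to 29.4, 227, 261 and 678 CPM in CD11clo RAS. 4 marker lists separated CD11clo RAS from Sham without overlap, as Fcgr1, Fcgr2b and Fcgr3 did. The macrophage markers summed to 8179.6 to 9444 CPM in CD11clo Sham and 9715 to 19827 CPM in CD11clo RAS. B and plasma cell markers, from cells known to express Fcgr2b, summed to 242 to 329 CPM in CD11clo Sham and 469 to 628 CPM in CD11clo RAS. Endothelial markers summed to 28.5 to 52.8 CPM and 61.6 to 286 CPM, and NK cell markers to 0.514 to 6.37 CPM and 11.8 to 15.2 CPM, in the same groups. Non-classical monocyte markers summed to 1274, 765 and 165 CPM in CD11chi Sham and to 862, 319, 133 and 156 CPM in CD11chi RAS. Their sum was 252 to 309.6 CPM in KRM Sham and 327, 92.9 and 104 CPM in KRM RAS, and it was 431 CPM in CD11clo RAS 3 against 965 to 1346 CPM in the other 6 CD11cloMϕ libraries. NK cell markers were at 28.6 to 113 CPM in CD11chi Sham and 146 to 256 CPM in CD11chi RAS. Podocyte markers were at 86.9 and 85.4 CPM in KRM RAS 2 and 3, against 2.02 to 4.26 CPM in the other 5 KRM libraries. The part of these differences in the receptor values was not tested.

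**Figure D4:**
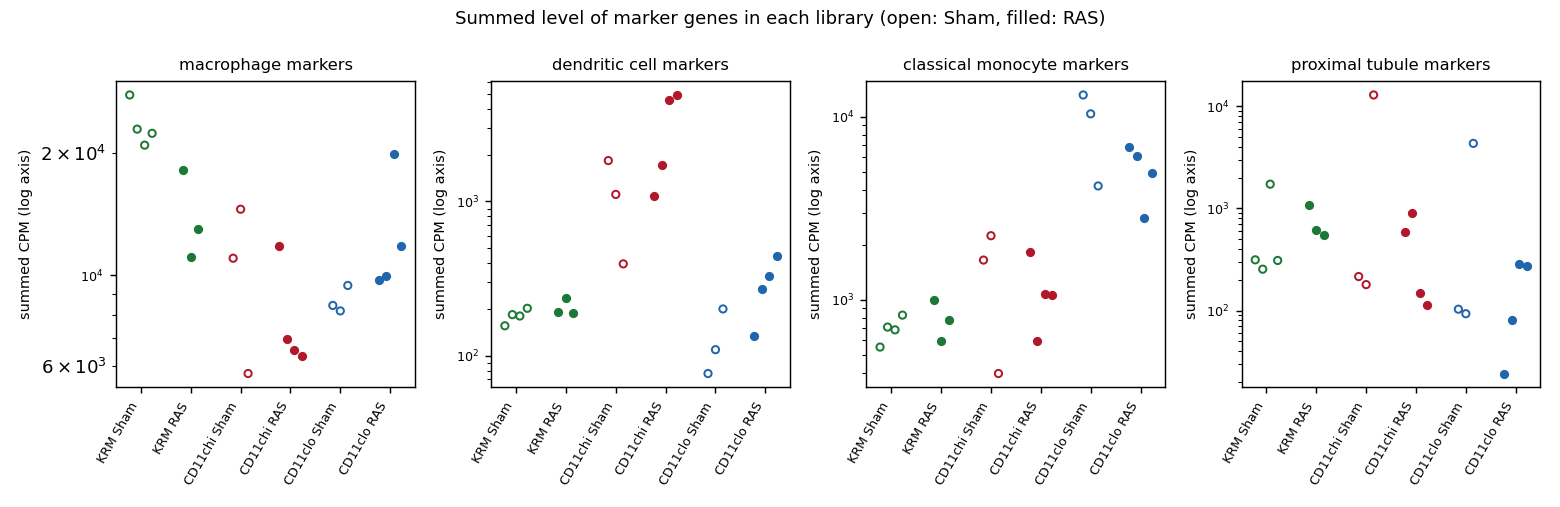
Summed CPM (log axis) of macrophage, dendritic cell, classical monocyte and proximal tubule marker genes in each of the 21 libraries by group; open points are Sham, filled points RAS. The proximal tubule sum of CD11chi Sham 3 is 12938 CPM, and the macrophage sum is lower in the 3 KRM RAS libraries than in the 4 KRM Sham libraries.

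Ratios of CPM taken within a library do not depend on its scaling, and are compared between libraries only. Fcgr4 over the sum of Fcgr2b and Fcgr3 overlapped between groups in KRM, at log2 -2.43 ± 0.08 in Sham and -2.56 ± 0.09 in RAS, although all 3 genes were lower in RAS. In CD11chiMϕ it went from -2.54, -2.58 and -2.79 in Sham to -2.92, -4.13, -5.87 and -5.69 in RAS, without overlap. Fcgr4 over Fcgr1 was 1.09 ± 0.07 in KRM Sham and 0.30 ± 0.09 in KRM RAS, without overlap. In CD11chi Sham the same ratio was 1.12, 1.27 and 1.03, and in CD11clo Sham it was lower, at -1.02, -1.38 and -1.13. The chain Fcer1g over the summed activating receptors (Fcgr1, Fcgr3 and Fcgr4) was -0.21 ± 0.16 in KRM Sham and -0.17 ± 0.09 in KRM RAS. It was 0.83 ± 0.04 in CD11clo Sham and 0.33 ± 0.38 in CD11clo RAS, without overlap. Leaving KRM RAS 1 aside, the other 2 KRM RAS libraries were at -2.64 and -2.58 for Fcgr4 over Fcgr2b plus Fcgr3, below all 4 KRM Sham libraries, so that the overlap rested on KRM RAS 1 (-2.46). They were at 0.20 and 0.38 for Fcgr4 over Fcgr1, and at -0.21 and -0.23 for Fcer1g over the activating receptors.

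**Figure D5:**
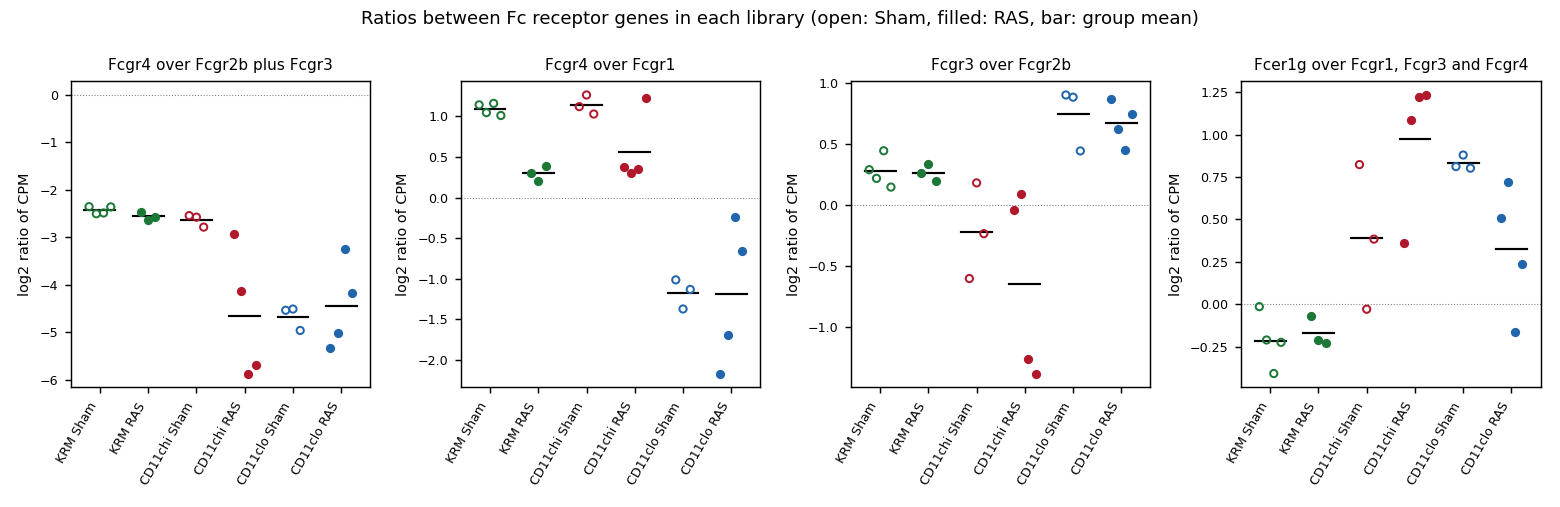
Log2 ratio of CPM between Fc receptor genes in each library by group; open points are Sham, filled points RAS, bars are group means. Fcgr4 over the sum of Fcgr2b and Fcgr3 stays between -2.64 and -2.35 in the 7 KRM libraries and reaches -5.87 in CD11chi RAS.

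Genes with the most similar profile over the 21 libraries were sought by the root mean square (RMS) difference in log2 CPM centred on each gene's mean. For Fcgr1 the nearest was Emr1 (0.26), the gene of the other sort marker F4/80, then Slc11a1 (0.45) and Fyb (0.46), where Fcgr1 itself varied by 1.07 about its mean. Fcgr4, which varied by 1.42, lay nearest to the complement genes C1qa (0.42) and C1qc (0.44) and to Tgfbr1 (0.43). Fcgr2b lay nearest to Ebi3 (0.19), Ly86 (0.25) and Kdm2b (0.25), Fcgr3 to Trim3 (0.26), Alg11 (0.26) and Ifnar1 (0.28), and Fcgrt to Dhrs3 (0.29), Snx5 (0.30) and 6330409N04Rik (0.30). Fcgr2b, Fcgr3 and Fcgrt varied by 0.58, 0.56 and 0.62 about their means. Fcrls, which varied by 2.04, lay nearest to Egr2 (0.87), Tnfsf9 (0.90) and Aldh1a2 (0.90). The differences are not scaled to how much each member varied, so their sizes are not compared between members.

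The wider pathway was tested with edgeR's quasi-likelihood test and Benjamini-Hochberg adjustment over all genes, on 80 listed genes. In KRM against CD11cloMϕ of Sham kidneys, 17 of 70 tested pathway genes were higher and 33 lower (all genes: 41.8% called, with 19.5% higher and 22.3% lower). The median log2 fold change was -0.46 over the list and -0.04 over all genes. With the replicate block 44 were called (15 higher and 29 lower), and limma on the log2 table called 23 higher and 21 lower of 76. In 1 fit over all groups 24 of 76 were called (9 higher and 15 lower), where 3447 of all 14504 genes were. Of 22 ITAM kinases and effectors 14 were lower and 3 higher. The kinases Syk (-0.69, SE 0.16, adjusted p = 0.00967), Lyn (-0.52, SE 0.13, adjusted p = 0.0125) and Fgr (-2.32, SE 0.20, adjusted p = 5.58e-05) were lower in KRM, as was the ITAM adaptor Tyrobp (-0.64, SE 0.21, adjusted p = 0.0399). The phosphatase gene Inpp5d was higher (0.69, SE 0.11, adjusted p = 0.00157), and Ptpn6, which encodes SHP-1, was not called (-0.06, SE 0.15, adjusted p = 0.762). Over the alternatives the highest adjusted p was 0.131 for Syk, 0.381 for Lyn, 0.144 for Tyrobp and 0.155 for Inpp5d, so these calls were lost under at least 1 of them, while Fgr stayed called (highest 0.00158).

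B2m, the partner of FcRn, was higher in KRM than in CD11cloMϕ (0.86, SE 0.15, adjusted p = 0.00251), on the side where Fcgrt was also higher, although its adjusted p reached 0.451 under 1 alternative. The inhibitory collagen receptor gene Lair1 was higher (2.33, SE 0.14, adjusted p = 1.07e-05), as were the IL-10 receptor chain Il10rb (1.99, SE 0.15, adjusted p = 2.9e-05) and Fcrl1 (1.97, SE 0.24, adjusted p = 0.000375). Lower in KRM were Clec4e (-6.71, SE 0.23, adjusted p = 1.11e-06) and Clec4d (-5.74, SE 0.45, adjusted p = 3.71e-05), C-type lectins that use the Fcer1g chain, and the adaptor Dok2 (-4.25, SE 0.25, adjusted p = 8.5e-06). Neutrophil markers summed to 808 to 2226 CPM in CD11clo Sham and 5.67 to 8.63 CPM in KRM Sham. Classical monocyte markers summed to 4192 to 13170 CPM and 552 to 825 CPM in the same groups. The part of these cells in the pathway calls was not tested.

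Against CD11chiMϕ of Sham kidneys fewer genes were called: none of 71 was higher and 5 were lower in KRM (all genes: 5.12% called, with 1% higher and 4.12% lower), with a median of 0.15 against -0.07. They included Clec4e (-4.30, SE 0.41, adjusted p = 0.00377), Dok2 (-3.43, SE 0.54, adjusted p = 0.017) and Rab11a (-0.59, SE 0.13, adjusted p = 0.0461), which encodes an endosome recycling GTPase. With the replicate number as a block 2 remained (Clec4e and Dok2). The Dok2 call was lost, however, without any 1 KRM Sham library (adjusted p up to 0.068). Without CD11chi Sham 3 the count was 23 (5 higher and 18 lower), where 1717 of all 12628 genes were called. DESeq2 called 12 (5 higher and 7 lower), where it called 1811 of all 11695 genes. In CD11chiMϕ against CD11cloMϕ 1 of 70 was called (all genes: 1.52%, with 0.917% higher and 0.603% lower), Fcrla, an Fc receptor-like gene of B cells, higher in CD11chiMϕ at 4.52 against 0.0392 CPM. B and plasma cell markers summed to 836 to 1930.2 CPM in CD11chi Sham and 242 to 329 CPM in CD11clo Sham, and their part in this result was not tested. This call was lost (0 called) with total library size, with no filter, with limma, and without CD11chi Sham 1 or 2 or any 1 CD11clo Sham library. With the block 5 were called (1 higher and 4 lower, with 595 of all 12105 genes called), and without Sham replicate 3 in both populations 22 (9 higher and 13 lower, with 1897 of 12119). The median over the list was -0.38, against 0.13 over all genes.

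In RAS against Sham, 4 of 70 pathway genes were higher and 2 lower in KRM (all genes: 9.7% called, with 7.77% higher and 1.94% lower), with a median of -0.39 against 0.02. Clec4e (1.89, SE 0.42, adjusted p = 0.0365), Clec4d (2.96, SE 0.53, adjusted p = 0.0257) and Dok2 (1.83, SE 0.35, adjusted p = 0.028) were higher. The fourth was Pigr, the receptor of polymeric immunoglobulin (3.98, SE 0.92, adjusted p = 0.0395), whose groups overlapped. The signalling adaptor Card9 (-1.21, SE 0.30, adjusted p = 0.0466) and Pira2 (-1.14, SE 0.26, adjusted p = 0.0384), a receptor that pairs with the Fcer1g chain, were lower. Each of these 6 calls was lost under some alternatives, with adjusted p-values of up to 0.148 for Clec4e, 0.132 for Clec4d, 0.0911 for Dok2, 0.17 for Pigr, 0.161 for Card9 and 0.142 for Pira2. Inpp5d (-0.74, SE 0.22, adjusted p = 0.0685), Syk (-0.56, SE 0.19, adjusted p = 0.0885) and B2m (-0.47, SE 0.18, adjusted p = 0.115) were not called, although their groups did not overlap. Lyn, Tyrobp and Ptpn6 were also lower in RAS without overlap and not called, and Fgr overlapped and was not called. Without KRM RAS 1, 52 of 71 pathway genes were called (11 higher and 41 lower), as were 7070 of all 14088 genes in that fit. The log2 fold changes were then 2.21 for Clec4e, 3.28 for Clec4d, 1.40 for Dok2, 4.43 for Pigr, -1.58 for Card9 and -1.54 for Pira2. They were -0.78 for Lyn, -0.89 for Tyrobp, -1.38 for Ptpn6 and -1.03 for Fgr, each called. Inpp5d, Syk and B2m were then at -1.10, -0.76 and -0.63 and were called, with edgeR adjusted p-values of 0.000547, 0.00975 and 0.0129. Over the alternatives their adjusted p-values ranged from 0.000547 to 0.221 for Inpp5d, 0.00975 to 0.229 for Syk and 0.00376 to 0.278 for B2m. None was called without KRM RAS 2, KRM RAS 3, or KRM Sham 1, 2 or 4, or with KRM RAS 2 and 3 summed into 1 library.

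In CD11chiMϕ none of 73 pathway genes, and in CD11cloMϕ none of 69, was called by edgeR between RAS and Sham, as was none of all 12739 and 12301 genes tested. At an unadjusted p under 0.05 there were 7 and 6 pathway genes and 1247 and 1102 genes in all. DESeq2 called 1 pathway gene in each population (188 and 107 genes in all) and limma none (0 and 0 in all). The medians over the list were 0.14 in CD11chiMϕ (all genes: -0.09) and 0.05 in CD11cloMϕ (all genes: -0.02).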

How the data were processed

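RNA-seq libraries were made with an ultra-low-input kit and Nextera XT. Per the paper's methods, the authors aligned paired-end reads to mm10 with OSA and assigned them to Ensembl genes. The deposited counts are estimated counts per gene, not scaled. A log2 table was deposited too, log2(TPM + 1) after quantile normalisation. Here, 3730 lines sharing a name were summed, giving 34236 names from 37620 lines, and counts were rounded. Levels are TMM-scaled CPM over the 21 libraries, and totals of 6891137 to 18592376 counts limit the precision by counting error alone.

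Groups came from the labels. Libraries of the groups compared were fitted in edgeR 4.0.16 (R 4.3.3), with TMM factors, filterByExpr (minimum count 10, minimum total 15), the quasi-likelihood F test, two-sided, and Benjamini-Hochberg adjustment (threshold 0.05). The fit was checked on simulated counts. Standard errors are the fold change over the square root of F. Alternatives changed the scaling (median of ratios, or library totals), dropped the filter, fitted the groups jointly, added a replicate block, left out libraries, or used DESeq2 1.42.0 or, on the deposited log2 table, limma 3.58.1. Same-numbered Sham libraries of different populations deviated together (r = 0.30 to 0.70 across 13080 genes, every pair over 0.1). The best match did not always share the number, however. KRM Sham 1 and CD11chi Sham 1 each matched CD11clo Sham 2 best, and CD11chi Sham 2 matched CD11clo Sham 1 best. Elsewhere the best match shared the number. Pairing by number is thus not established, and blocked counts of pathway genes are given beside those comparisons as an alternative.

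The members and lists were chosen with earlier results of these data known. All 7 members are named, as are Syk, Lyn, Fgr, Tyrobp, Inpp5d, Ptpn6, B2m and, per comparison, up to 3 list genes per direction by fold change (called, no overlap, mean log2 CPM at least 3). Another gene of that rule is not reported here. Similar genes are named where a member's group means spanned more than 1 on the log2 scale. Other genes (Fcrla, and Clec4d and Pigr in KRM RAS) were named after their values were seen. Of 80 pathway genes, all were found, 3 under older symbols. Exon lengths and positions are from GENCODE vM21 (GRCm38).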

Additional observations from a re-analysis of the deposited data

Results flagged for a closer look

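In 39 groups of 4 values (a gene's level or a ratio in 1 group of libraries), 4 held a value far from the other 3, by a limit on the gap over the range that chance passes in about 1 group in 20. They are given as a description. In CD11clo RAS, replicate 3 held 242 CPM of Fcgr1 and 330.2 CPM of Fcgrt, where the other 3 libraries held 119.7 to 126 CPM and 115 to 149.7 CPM. The same library held the highest macrophage marker sum of its population. In KRM Sham, replicate 1 held 455 CPM of Fcgr4, against 349 to 364 CPM. In CD11chi RAS, replicate 4 had a log2 ratio of Fcgr4 over Fcgr1 of 1.22, against 0.30 to 0.37 in the other 3, and rested on 102 counts of Fcgr1.

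Fcgr2b and Fcgr3, which share a near-identical coding stretch, were both higher in RAS in CD11cloMϕ and both lower in RAS in KRM. RAS against Sham gave log2 fold changes of 0.65 in CD11cloMϕ and -0.81 in KRM for Fcgr2b, and 0.56 and -0.83 for Fcgr3, with every RAS library on its side of the Sham libraries in each population. The difference between the populations was not tested, since the members were chosen with these values known.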

How the results depend on the processing

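The fold changes of the 7 members gave 623 values under the alternatives, of which 606 moved by less than the spread between replicates and 17 by more. Of the 623, 23 had the other sign, all for fold changes of at most 0.25 in size on the log2 scale. Counts of called pathway genes moved more, and the cause was not tested. KRM against CD11chiMϕ in Sham (5 called) gave 3 with total library size, 3 with no filter, 2 with the replicate block, 12 with DESeq2, 3 with limma and 2 to 23 leaving out libraries (23 without CD11chi Sham 3, and 20 without replicate 3 of both). KRM against CD11cloMϕ (50) gave 24 in 1 fit over all groups and 37 to 54 leaving out libraries. CD11chiMϕ against CD11cloMϕ (1) gave 0 with total library size, no filter and limma, 7 in 1 fit over all groups, 5 with the replicate block, 6 with DESeq2 and 0 to 22 leaving out libraries (10 without CD11chi Sham 3 and 22 without replicate 3 of both). RAS against Sham gave 1 with DESeq2 in CD11chiMϕ (0 to 1 leaving out libraries) and 1 in CD11cloMϕ (0 to 0). In KRM (6) it gave 31 with DESeq2, 37 with limma, 52 with limma without the column of KRM RAS 1, 0 with KRM RAS 2 and 3 summed, and 0 to 52 leaving out libraries (52 without KRM RAS 1, and 0 without KRM Sham 1, 2 or 4 or KRM RAS 2 or 3). Same-numbered RAS and Sham libraries did not all deviate together (r = -0.33 to 0.41), so they share only a number. The replicate block left 0 called in KRM RAS against Sham.

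The summing of close libraries and the limma fit without KRM RAS 1 were chosen after the data were seen. The counts of pathway genes with total library size were not planned in advance either. With 3 or 4 libraries a group, and the close pairs, small fold changes could not be resolved. Fcrls in KRM Sham rests on 58 to 136 counts. Over all genes, the median log2 fold change for RAS against Sham in KRM was 0.02 with TMM factors and 0.09 with total library size, the widest gap between these 2 scalings among the 6 comparisons.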
